A study of Mus musculus with 6 samples.

Results

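Solute carrier genes encode the membrane proteins that move sugars, amino acids, ions, metals, nucleosides and metabolites into cells and organelles. Members were taken as the probes whose 1 annotated gene symbol follows the naming pattern of the family (Slc with family number and member, or Slco). They numbered 270 probes of 198 genes, out of 16281 probes and 10698 named genes on the array. The cells were RAW 264.7, a mouse macrophage line that part of the labels write as RAW 264.4, so all arrays share 1 tumour-derived line. Treated cells were given LPS (bacterial lipopolysaccharide) at 100 ng/ml together with its binding protein LBP at 100 pM, and untreated cells had neither, with both cultured for 4 h. Each of 6 two-colour arrays carried total RNA of treated and untreated cells, in sets numbered 1 to 3, with treated RNA in Cy5 on 3 arrays and in Cy3 on the other 3.

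Carriers use the gradient of one solute, or the concentration of the substrate itself, to move another across a membrane, and they burn no ATP of their own. In macrophages they are known for supplying glucose and amino acids to activated cells, for holding iron, zinc and copper away from or near engulfed microbes, and for emptying the lysosome. LPS, the endotoxin of Gram-negative bacteria, is handed by LBP to the receptor complex of CD14 and TLR4.

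Each value is a log2 ratio, treated over untreated, so 1 is a doubling, and 0 is no difference. Mean ± SD is over n = 3 sets, each the average of its array with treated RNA in Cy5 and its array with treated RNA in Cy3. Rose and fell are used of genes that passed limma's test at a Benjamini-Hochberg adjusted p below 0.05 over 11364 features. The direction is the likely one: the labels call Cy5 the test channel, the table does not say which dye was divided by which, and the other reading would turn every sign. Arrays of opposite orientation correlated across probes from -0.716 to -0.283 as deposited and those of the same orientation from 0.735 to 0.853. The table holds ratios without intensities, so no level is given for any gene and the labelled cell type could not be checked by level. Of the macrophage markers, 11 had a ratio on all arrays, among which 5 rose and 1 fell (45.5% and 9.09%, against 14.0% and 15.0% of all features). Of the markers of other cell types, 3 of 6 for osteoclasts (50%) and 1 of 4 for T cells (25%) rose. None of 4 for B cells, 5 for fibroblasts and 2 for epithelium passed, against 29.0% of all features. Their part in the carrier results was not tested. The p-values cover only the spread between the 3 set averages, and differences between the 2 arrays of a set do not enter it. The labels do not say whether each set came from its own culture, so that spread could be technical.

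An exact 0 was taken as not measured. By that rule 214 carrier probes had values on all 6 arrays, 46 on some and 10 on none, and 174 of the 198 genes could be tested. Of these 174, 24 rose, 30 fell and 120 did not pass. The 174 include 4 genes that match the naming pattern but are no carriers, such as Slc39a1-ps and Slc4a1ap. Without those 4, 23 of 170 rose and 30 fell. The adaptor gene Slc9a3r2 is among the 174 and again among the partner genes counted further on. Over all features 29.0% passed, 14.0% higher and 15.0% lower, so the carriers' share of 31.0% (13.8% higher and 17.2% lower) lay near the background. Of the 120 that did not pass, 119 had a 95% interval within a 1.5-fold change in either direction, the exception being Slc28a2. The carrier median was 0.0053, against 0.00079 for all features. Rises of at least 2-fold were found for 4 of the 174 carriers, and for 213 of 11364 features (1.87%). No carrier fell 2-fold, a fall found in 0.158% of all features, and the strongest fall was by 0.77 on the log2 scale.

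**Figure D1:**
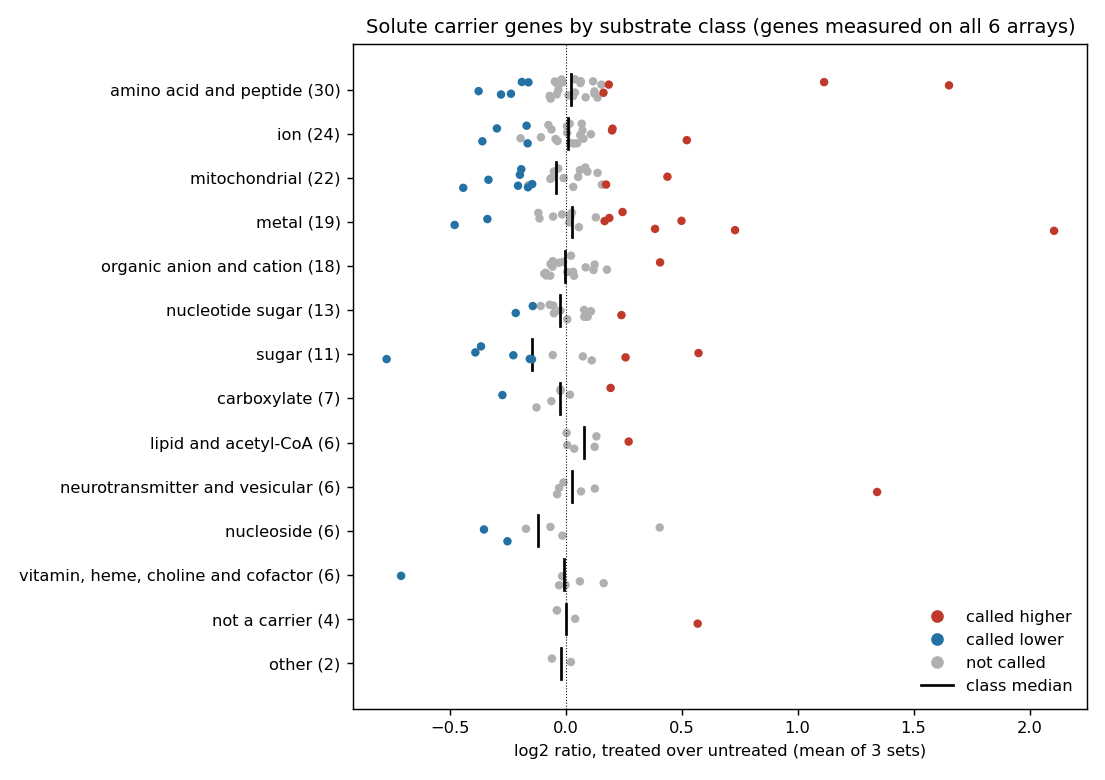
Change of each of the 174 solute carrier genes measured on all 6 arrays, grouped by substrate class. The x axis is the log2 ratio of treated over untreated (mean of 3 sets), each point is a gene, red passed higher, blue passed lower, grey did not pass, and the black line is the class median. The sugar class has 6 of its 11 genes in blue, the metal class has 7 of 19 in red, and 4 genes lie above 1.

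Metal carriers had 7 rises and 2 falls among 19 genes (36.8% and 10.5%, against 14.0% and 15.0% of all features). Their median was 0.028, with no test of the class. The largest change of any carrier was that of Slc31a2, which encodes a copper transporter-like protein of endosomes and lysosomes. Slc31a2 was at 2.08, 2.04 and 2.15 on the arrays with treated RNA in Cy5, and at 2.11, 2.26 and 1.99 on those with treated RNA in Cy3. Every array showed about the same ratio, and both orientations overlapped. Its mean was 2.11 ± 0.041, a 4.30-fold rise (limma adjusted p = 1.51e-07). Slc11a2, the proton-coupled importer of ferrous iron (DMT1), was at 0.81, 0.94 and 0.81 with treated RNA in Cy5 and at 0.65, 0.62 and 0.56 with it in Cy3. All arrays were above 0, with the Cy5 arrays higher, and the mean was 0.73 ± 0.049 (limma adjusted p = 2.06e-05). Its 2 probes differed in size, at 0.50 and 0.96. Slc11a1, the phagosomal metal transporter Nramp1, of which this line is known to carry the defective form, was at 0.48, 0.069 and 0.59 with treated RNA in Cy5 and at 0.37, 0.85 and 0.64 with it in Cy3. Set 2 held both its lowest and its highest array, and the mean was 0.50 ± 0.098 (limma adjusted p = 2.96e-04).

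Slc40a1, which encodes ferroportin, the exporter of iron from cells, went the other way from Slc11a2 and Slc11a1. It was at -0.46, -0.53 and -0.62 with treated RNA in Cy5 and at -0.32, -0.37 and -0.58 with it in Cy3. All 6 arrays were below 0 and the mean was -0.48 ± 0.11 (limma adjusted p = 4.53e-04). Zinc carriers of the secretory pathway were split. Slc30a7, which loads zinc into the Golgi, rose by 0.39 ± 0.068, and Slc30a6, a partner of the Slc30a5 protein in the same compartment, by 0.25 ± 0.045. Slc30a5 itself fell to -0.34 ± 0.024, with arrays from -0.53 to -0.15. The ZIP-family gene Slc39a13 rose by 0.19 ± 0.10. Slc30a1, the zinc exporter of the plasma membrane, passed at 0.17 ± 0.073, but its orientations opposed each other. It averaged -0.11 on the arrays with treated RNA in Cy5 and 0.44 on those with it in Cy3. The 10 other metal carriers did not pass and lay between -0.12 (Slc39a3) and 0.13 (Slc39a7). The pseudogene Slc39a1-ps, which the naming pattern also takes in, rose by 0.57 ± 0.053, and binding of its probe to transcripts of the parent zinc transporter gene was not tested.

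Genes that handle the same metals without being carriers were counted from a fixed list. In the iron and heme list 3 of 9 measured genes rose and 2 fell (33.3% and 22.2%, against 14.0% and 15.0% of all features). Cp, the copper-dependent ferroxidase ceruloplasmin that works beside ferroportin, rose by 1.19 ± 0.14, the heme-degrading Hmox1 by 0.45 ± 0.13 and the transferrin receptor gene Tfrc by 0.21 ± 0.093. Aco1, an iron-sensing RNA-binding protein, was at -0.19 ± 0.035 and the reductase gene Cybrd1 at -0.21 ± 0.096, and for both the arrays did not all lie on one side of 0. Among 9 measured zinc and copper genes 4 rose (44.4%) and 0 fell in this test, with 0 falls also at an unadjusted p below 0.05. They were the metallothionein gene Mt2 (1.07 ± 0.18), its metal-sensing regulator Mtf1 (0.57 ± 0.27), the copper pump gene Atp7a (0.30 ± 0.012) and the copper chaperone gene Cox17 (0.24 ± 0.092).

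**Figure D2:**
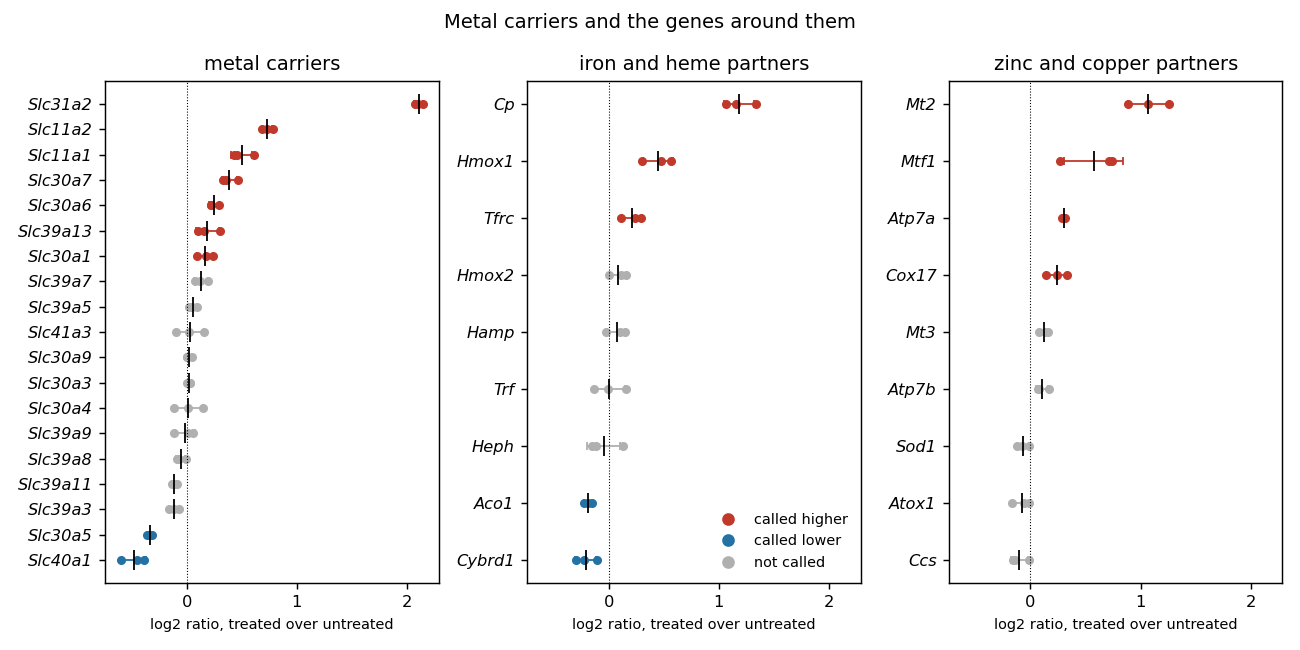
Log2 ratio of treated over untreated for the 19 metal carrier genes, 9 iron and heme partners and 9 zinc and copper partners. Points are the 3 sets, the black tick is their mean and the bar its SD, with red for genes that passed higher, blue for lower and grey for neither. Slc31a2 stands apart at 2.11, followed by Cp at 1.19 and Mt2 at 1.07, and Slc40a1 is lowest at -0.48.

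Amino acid and peptide carriers rose in 4 of 30 cases and fell in 5. These shares of 13.3% and 16.7% lay near the 14.0% and 15.0% of all features, but 2 of the 4 rises were among the largest of the family. Slc15a3, a lysosomal exporter of histidine and small peptides, was at 1.58, 1.89 and 1.61 with treated RNA in Cy5 and at 1.55, 1.69 and 1.59 with it in Cy3. The orientations overlapped, and its 2 probes were at 1.61 and 1.70. The mean was 1.65 ± 0.12, a 3.14-fold rise (limma adjusted p = 9.64e-07). Slc7a11, the subunit of the cystine and glutamate exchanger that brings in cystine for glutathione, was at 1.19, 1.54 and 1.45 with treated RNA in Cy5 and at 0.79, 0.84 and 0.88 with it in Cy3. All arrays were high, with the Cy3 arrays below all Cy5 arrays, and the mean was 1.11 ± 0.11 (limma adjusted p = 6.04e-06). A second probe of Slc7a11 had values on 4 arrays and changed sign with the dye, from -1.08 to -0.45 with treated RNA in Cy5 and at 1.45 on 1 array with it in Cy3. The heavy chain that Slc7a11 and other light chains pair with, Slc3a2, passed at 0.16 ± 0.034, but averaged 0.33 on the arrays with treated RNA in Cy5 and -0.0048 on those with it in Cy3. Slc7a7, a light chain for cationic amino acids, rose by 0.19 ± 0.095.

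Carriers of neutral amino acids were among those that fell. Slc6a9, the glycine transporter GlyT1, fell to -0.37 ± 0.069, with arrays from -0.56 to -0.13 once its 2 probes were averaged. In 1 probe the sign changed with the dye, at -0.68 with treated RNA in Cy5 and 0.14 with it in Cy3. The other averaged -0.29 and -0.67 in the same order. Slc43a1, a leucine-type amino acid carrier, was at -0.24 ± 0.031 and Slc38a10 at -0.16 ± 0.023. For Slc1a4, a carrier of alanine, serine and cysteine (-0.28 ± 0.084), the call rested on 1 of 2 probes, at -0.64 against 0.083. Slc1a2, a glutamate carrier (-0.19 ± 0.099), likewise had 1 of 3 probes at -0.57 and the others at -0.0037 and 0.010. Slc7a2, the cationic carrier that can feed arginine to nitric oxide synthase, did not pass at -0.046 ± 0.15 (limma adjusted p = 0.634, 95% interval -0.19 to 0.095). Its second probe, with values on 3 arrays, changed sign with the dye, at -0.73 with treated RNA in Cy5 and at 1.07 and 1.19 with it in Cy3. The relative Slc7a1 (0.12 ± 0.034, adjusted p = 0.0778) did not pass, and neither did the glutamine carrier gene Slc1a5 (0.065 ± 0.065) or the leucine carrier gene Slc7a5 (0.064 ± 0.13).

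Among enzymes and sensors that use or follow these substrates, 8 of 17 measured genes rose and 4 fell. These shares were 47.1% and 23.5%, against 14.0% and 15.0% of all features, and 6 of the 12 moved the same way on all arrays. The polyamine synthesis gene Odc1 (0.82 ± 0.077) and the arginase gene Arg2 (0.81 ± 0.35) rose most. Gclc, the catalytic subunit of the enzyme that starts glutathione synthesis from cysteine, fell to -0.89 ± 0.14.

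The serotonin transporter gene Slc6a4 was the only one of 6 neurotransmitter and vesicular carriers to pass (16.7%, against 29.0% of all features). It was at 1.29, 0.75 and 1.51 with treated RNA in Cy5 and at 1.30, 1.56 and 1.65 with it in Cy3. The Cy5 array of set 2 was the lowest and the other 5 lay close together. The mean was 1.34 ± 0.22, a 2.54-fold rise (limma adjusted p = 1.80e-05), and its 2 probes were at 1.20 and 1.48. The dopamine and noradrenaline carriers Slc6a3 (-0.037 ± 0.016) and Slc6a2 (0.13 ± 0.28) did not pass.

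**Figure D3:**
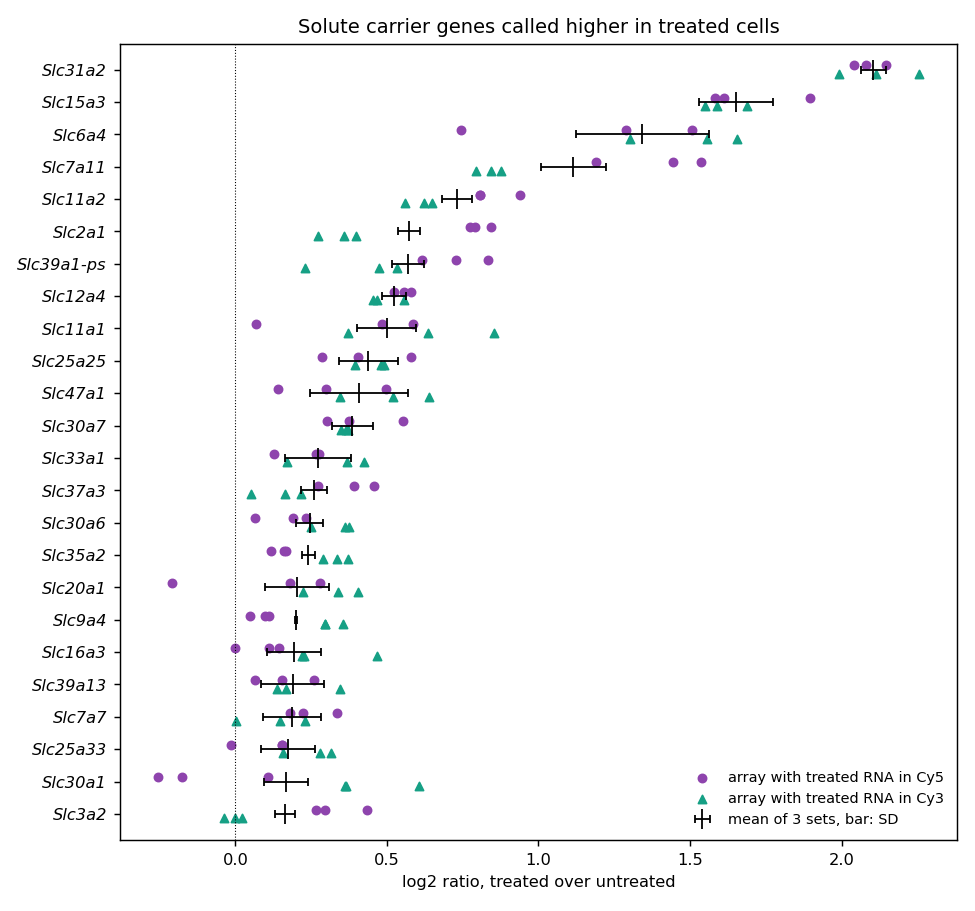
The 24 solute carrier genes that passed higher. The x axis is the log2 ratio of treated over untreated, circles are the 3 arrays with treated RNA in Cy5, triangles the 3 arrays with it in Cy3, and the black tick and bar are the mean of 3 sets and its SD. The upper genes, led by Slc31a2 at 2.11, have every array well above 0, whereas Slc30a1 and Slc3a2 at the bottom have their orientations on different sides of 0 or near it.

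Sugar carriers had 6 falls and 2 rises among 11 measured genes (54.5% and 18.2%, against 15.0% and 14.0% of all features) and a median of -0.14, with no test of the class. The largest fall of any carrier was that of Slc37a2, an exchanger of sugar phosphates for phosphate. Slc37a2 was at -0.82, -0.59 and -0.73 with treated RNA in Cy5 and at -0.83, -0.88 and -0.78 with it in Cy3. No array was near 0, and the mean was -0.77 ± 0.046 (limma adjusted p = 1.51e-05). In the same family Slc37a4, the carrier that brings glucose 6-phosphate into the endoplasmic reticulum, fell to -0.23 ± 0.040, whereas Slc37a3 rose by 0.26 ± 0.043. Slc5a3, the sodium-coupled importer of the osmolyte myo-inositol, fell to -0.39 ± 0.20, with set 3 at -0.62 and the other sets at -0.30 and -0.25. Slc2a8, an intracellular glucose transporter, fell to -0.36 ± 0.030. Smaller falls were those of Slc2a9, known as a urate carrier (-0.14 ± 0.017), and Slc50a1 (-0.15 ± 0.027), which averaged -0.31 on the arrays with treated RNA in Cy5 and -0.0033 on those with it in Cy3. Both of these calls ended whichever set was left out.

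Slc2a1, the glucose transporter of the plasma membrane known as GLUT1, was the one hexose carrier that rose. It was at 0.79, 0.84 and 0.77 with treated RNA in Cy5 and at 0.27, 0.36 and 0.40 with it in Cy3, so both orientations were above 0 but did not overlap. Slc2a3 did not pass (0.074 ± 0.017, limma adjusted p = 0.239), and neither did Slc2a4 (-0.055 ± 0.081). Of 4 measured enzymes of sugar use 1 rose (25%, against 14.0% of all features). It was Hk2, which traps glucose after entry, at 0.52 ± 0.073, and the others lay between 0.0088 and 0.10.

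Mitochondrial carriers, all of family Slc25, had 2 rises and 7 falls among 22 genes and a median of -0.041. These shares were 9.09% and 31.8%, against 14.0% and 15.0% of all features, with no test of the class. Slc25a25, the exchanger of ATP-magnesium for phosphate, rose by 0.44 ± 0.097, with arrays from 0.28 to 0.58. Slc25a33, a carrier of pyrimidine nucleotides, rose by 0.17 ± 0.089. Slc25a10, the dicarboxylate carrier, fell most. It was at -0.27, -0.68 and -0.32 with treated RNA in Cy5 and at -0.56, -0.42 and -0.39 with it in Cy3, and its mean was -0.44 ± 0.098 (limma adjusted p = 5.55e-04). Slc25a36, the other pyrimidine nucleotide carrier, fell to -0.33 ± 0.083, opposite to Slc25a33. Slc25a30 (-0.20 ± 0.032), the ornithine carrier gene Slc25a15 (-0.20 ± 0.088), the outer membrane protein gene Slc25a46 (-0.19 ± 0.064), the aspartate and glutamate carrier gene Slc25a13 (-0.16 ± 0.023) and the ATP and ADP exchanger gene Slc25a4 (-0.14 ± 0.039) made up the rest. Of 2 Slc25a4 probes, 1 averaged -0.46 with treated RNA in Cy5 and 0.18 with it in Cy3, the other -0.11 and -0.19. Slc25a4 passed in only 4 of the 19 alternatives described below. The related Slc25a5 was at 0.085 ± 0.0083 and did not pass, nor did Slc25a37, which brings iron into mitochondria (0.16 ± 0.12, limma adjusted p = 0.0716).

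Both equilibrative nucleoside transporters of the plasma membrane fell, Slc29a2 to -0.35 ± 0.030 and Slc29a1 to -0.25 ± 0.043, and all 6 arrays were below 0 for each. Among 6 nucleoside carriers 33.3% fell, against 15.0% of all features. No nucleoside carrier rose by limma's adjusted test (0 of 6, against 14.0%), and Slc28a2 was higher at an unadjusted p of 0.0231. The concentrative carrier gene Slc28a2 had the largest change that did not pass, at 0.41 ± 0.45 (limma adjusted p = 0.0715, 95% interval 0.074 to 0.74). Its sets were at 0.92, 0.18 and 0.12, so the mean rested on set 1. Leaving out set 1 gave 0.15 (limma adjusted p = 0.131) and leaving out set 3 gave 0.55 (adjusted p = 0.0834). Leaving out set 2 gave 0.52, the one case that passed (limma adjusted p = 7.27e-07). The sets left there were at 0.92 and 0.12, a spread that this p does not reflect. Slc19a2, a thiamine importer, had the second largest fall of all carriers. It was at -0.67, -0.85 and -0.67 with treated RNA in Cy5 and at -0.78, -0.66 and -0.63 with it in Cy3, with a mean of -0.71 ± 0.053 (limma adjusted p = 2.51e-05). Its relatives Slc19a1, for folate (-0.015 ± 0.035), and Slc19a3, also for thiamine (-0.028 ± 0.043), did not pass.

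Ion carriers had 3 rises and 4 falls among 24 genes, with a median of 0.012. These shares of 12.5% and 16.7% lay near the 14.0% and 15.0% of all features. Slc12a4, a potassium and chloride exporter, rose by 0.52 ± 0.039 with every array between 0.45 and 0.58, whereas Slc12a2, the importer of sodium, potassium and chloride, fell to -0.16 ± 0.046. The sodium and proton exchanger genes that passed went apart, with Slc9a4 at 0.20 ± 0.0037 and Slc9a2 at -0.36 ± 0.092. The phosphate importer gene Slc20a1 was at 0.20 ± 0.11, the sulfate carrier gene Slc26a2 at -0.30 ± 0.047 and the bicarbonate carrier gene Slc4a10 at -0.17 ± 0.098, and all 3 passed. The arrays of Slc4a10 lay on both sides of 0, with 3 above and 3 below.

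The remaining classes held few calls, and the share of each that passed is set against the 29.0% of all features. Of 7 carboxylate carriers 28.6% passed. The lactate exporter gene Slc16a3 rose by 0.19 ± 0.090, Slc16a7 fell to -0.27 ± 0.13, and Slc16a1 did not pass (-0.061 ± 0.025). Among 13 genes of the nucleotide sugar family 23.1% passed. Slc35a2, which brings UDP-galactose into the Golgi, rose by 0.24 ± 0.022. Slc35b2, the Golgi importer of the sulfate donor, fell to -0.14 ± 0.019 and Slc35e3 to -0.21 ± 0.13. Only 1 of 18 organic anion and cation carriers passed (5.56%), Slc47a1, an exporter of organic cations, at 0.41 ± 0.16 with arrays from 0.14 to 0.64. Slc33a1, which moves acetyl-CoA into the endoplasmic reticulum, rose by 0.27 ± 0.11 and was the 1 call among 6 lipid and acetyl-CoA carriers (16.7%). A second Slc33a1 probe, on 4 arrays, changed sign with the dye, at -2.63 and -2.11 with treated RNA in Cy5 and at 2.38 and 2.48 with it in Cy3. Probes of close relatives, such as those of the Slco1a genes, may bind each other's transcripts, which was not tested.

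**Figure D4:**
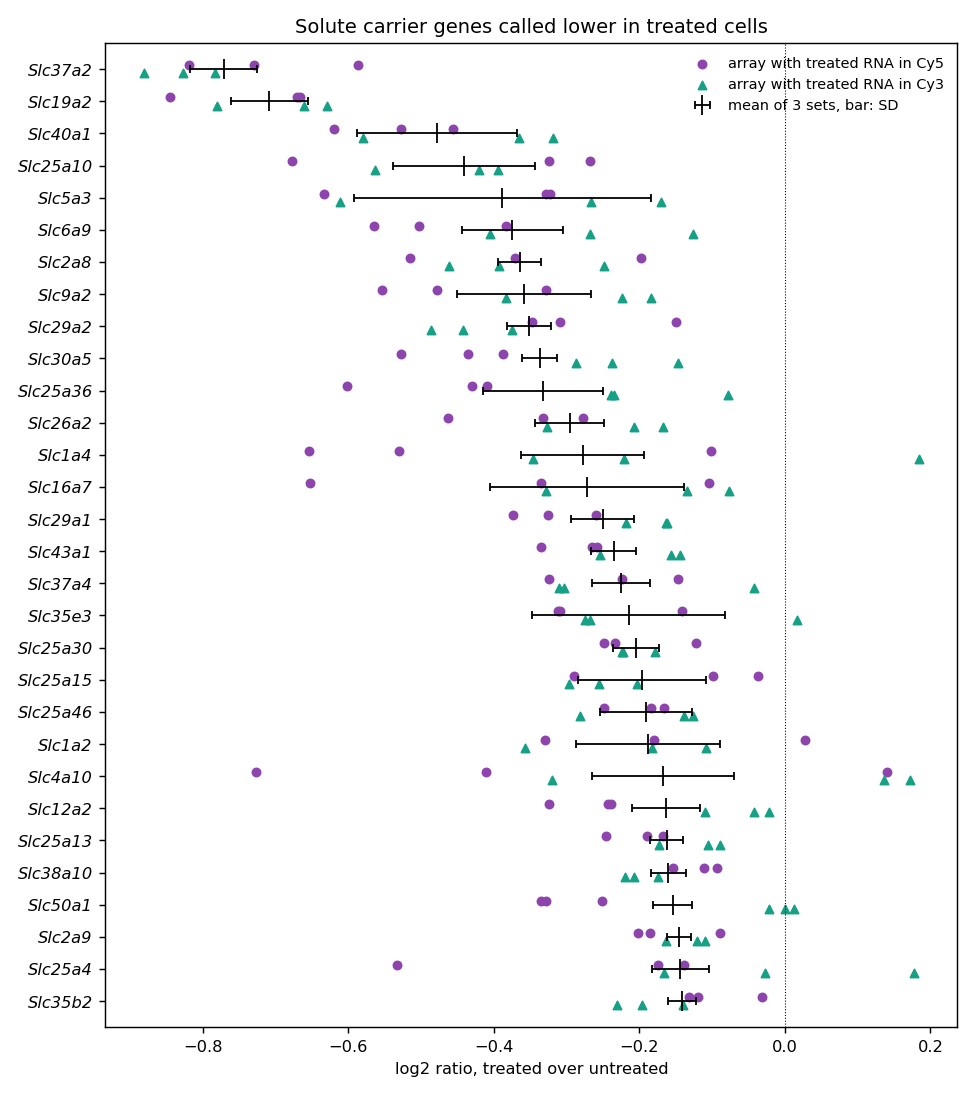
The 30 solute carrier genes that passed lower, drawn as log2 ratio of treated over untreated, with circles for the 3 arrays with treated RNA in Cy5, triangles for the 3 arrays with it in Cy3, and a black tick and bar for the mean of 3 sets and its SD. Slc37a2 at -0.77 and Slc19a2 at -0.71 stand apart from the rest, and Slc4a10 has arrays on both sides of 0.

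Promoters from RefSeq (GRCm38.p6), 250 bases before to 50 bases after the start, were in the table for 157 of the 198 carriers. Those of the highest and lowest gene are shown, with that of Slc7a11, which holds 2 copies of an amino acid response motif. Capitals mark matches, on either strand, to the motifs searched: GGGNNTTCC and a longer consensus for NF-kB, the interferon response element, TGANTCA for AP-1, TGCNCNC for metal response and TGATGNAAN for amino acid response. The windows are chr4:62286179-62286478 on the plus strand, chr3:50443564-50443863 on the minus strand and chr9:37255689-37255988 on the minus strand.
Slc31a2: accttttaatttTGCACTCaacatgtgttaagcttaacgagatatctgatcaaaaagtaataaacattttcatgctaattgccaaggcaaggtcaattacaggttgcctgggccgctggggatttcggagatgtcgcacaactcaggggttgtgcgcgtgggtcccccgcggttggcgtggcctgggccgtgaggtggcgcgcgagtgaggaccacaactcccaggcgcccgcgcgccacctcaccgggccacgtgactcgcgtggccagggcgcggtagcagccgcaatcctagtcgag
Slc7a11: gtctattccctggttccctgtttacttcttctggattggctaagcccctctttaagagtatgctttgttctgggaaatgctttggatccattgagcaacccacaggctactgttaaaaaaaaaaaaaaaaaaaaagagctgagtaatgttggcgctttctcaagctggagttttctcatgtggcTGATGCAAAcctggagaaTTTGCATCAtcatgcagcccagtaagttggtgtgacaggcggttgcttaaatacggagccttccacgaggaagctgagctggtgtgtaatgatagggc
Slc37a2: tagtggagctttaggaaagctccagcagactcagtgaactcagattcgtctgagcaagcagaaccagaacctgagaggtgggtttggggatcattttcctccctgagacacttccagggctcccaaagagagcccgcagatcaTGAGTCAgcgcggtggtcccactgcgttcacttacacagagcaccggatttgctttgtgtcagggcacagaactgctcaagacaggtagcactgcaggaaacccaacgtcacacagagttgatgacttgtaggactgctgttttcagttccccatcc
No matches to different motifs overlapped in these windows, and the AP-1 letters read the same on both strands. Slc31a2 had 1 metal response match at base 13, a motif that 53.6% of all 27025 genes with a promoter in the table hold. Slc7a11 had TGATGCAAA at base 185 and its reverse-strand counterpart TTTGCATCA at base 203, and 4.5% of all genes have at least 1 match to this motif. Slc37a2 had TGAGTCA at base 144, against 8.97% of all genes with an AP-1 match.

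Of the carriers that rose, 19 had a promoter in the table. Of those 19, 2 had the GGGNNTTCC motif (10.5%, against 6.58% of all genes), 2 the amino acid motif, 0 the AP-1 motif, 0 the interferon motif (3.99% of all genes) and 14 the metal motif (73.7%). Of the 24 with a promoter that fell, 5 had the AP-1 motif (20.8%), 2 the amino acid motif, 1 the GGGNNTTCC motif, 1 the interferon motif and 14 the metal motif (58.3%). The longer NF-kB consensus was in none of them, and in 0.174% of all genes. Matches describe letters in these windows and say nothing of a bound factor.

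Not all calls were equally firm. Of the 54 genes that passed, 43 moved the same way on all 6 arrays (24.7% of the 174 genes, against 22.2% of all features) and 11 did not. Called or not, 48 carriers kept 1 sign on all 6 arrays (27.6%, against 25.7% of all features). Set by set, 34 of the 54 passed whichever set was left out. The other 20 had changes of at most 0.21 in size. Without set 1, 16 calls ended, among them Slc20a1, Slc25a33, Slc30a1, Slc39a13 and Slc3a2 of the rises, at values from 0.13 to 0.20 in size (limma adjusted p from 0.0511 to 0.192). Without set 2, 14 ended, among them Slc16a3, Slc25a33 and Slc3a2, at 0.13 to 0.18 (adjusted p from 0.0514 to 0.203). Across those 14 the adjusted p rose steadily as the change shrank, so each gene's own spread counted for little in that fit. Without set 3, 11 ended, among them Slc16a3, Slc20a1, Slc30a1 and Slc7a7, at 0.11 to 0.20 (adjusted p from 0.0521 to 0.142). None of these values changed sign. The falls that ended in this way were those of Slc12a2, Slc1a2, Slc25a13, Slc25a15, Slc25a30, Slc25a4, Slc25a46, Slc2a9, Slc35b2, Slc35e3, Slc38a10, Slc4a10 and Slc50a1.

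Dye orientation alone separated some carriers. Among the 174 genes on all arrays the widest gap was that of Slc35b1, an endoplasmic reticulum nucleotide carrier, which averaged -0.74 on the arrays with treated RNA in Cy5 and 0.64 on those with it in Cy3, and did not pass (-0.050 ± 0.13). Slco3a1, an organic anion carrier, averaged -0.38 and 0.27 in the same order, for a mean of -0.055 ± 0.097. In fits of each orientation alone, 15 of the 54 genes passed in both, among them Slc31a2, Slc15a3, Slc6a4, Slc7a11, Slc37a2 and Slc40a1. A test of the dye effect over the set means called 0 of 11364 features with limma, with 2630 at an unadjusted p below 0.05, of which 39 were carriers. A fit of the 6 arrays called 554 features, 8 of them carriers, without set numbers and 0 with them.

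**Figure D5:**
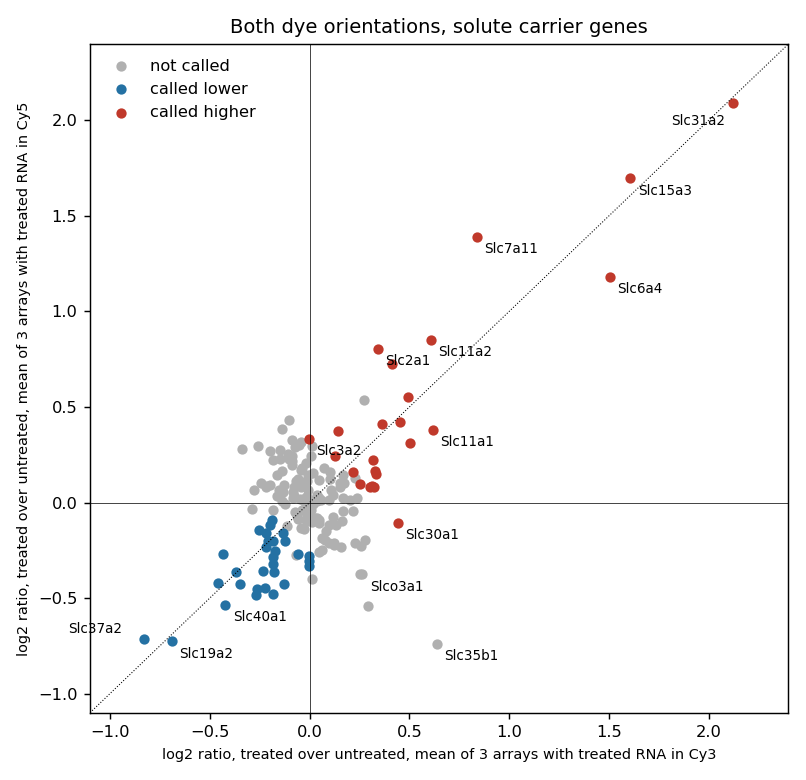
Mean log2 ratio of treated over untreated on the 3 arrays with treated RNA in Cy5 (y axis) against the 3 arrays with it in Cy3 (x axis) for 174 solute carrier genes. Red passed higher, blue passed lower, grey did not pass, and the dotted line marks equal values. Slc31a2 and Slc15a3 lie near the line and Slc7a11 and Slc2a1 above it, while Slc30a1, Slco3a1 and Slc35b1 lie in the lower right quadrant, where the orientations oppose each other.

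The 24 genes without a value on all arrays were left out of the counts by the filter on exact zeros. Slc5a4a was at exactly 0 on every array. When limma was run on every feature that had values in 2 sets or more, 13 of the others could be tested and 2 passed. Slco1c1, a carrier of thyroid hormones and organic anions, was at 1.72, 1.83 and 1.84 with treated RNA in Cy5 and at 1.57 and 1.72 in sets 1 and 3 with it in Cy3. Over those 2 complete sets its mean was 1.71 ± 0.094 (SD, n = 2; limma adjusted p = 6.49e-06), above that of every carrier but Slc31a2. A second Slco1c1 probe had values only in set 2, at 0.39 and -0.27 in the same order of dyes. Slc22a18 was at 0.20 ± 0.050 over sets 2 and 3 (SD, n = 2; limma adjusted p = 0.0495). The same probe was at -0.60 on its 1 array of set 1, its orientations averaged 0.36 with treated RNA in Cy5 and -0.18 with it in Cy3, and a second probe had 1 value, -0.38. The other 11 tested there lay between -0.084 (Slc3a1) and 0.10 (Slc2a2). Slc7a8, a neutral amino acid light chain, had a probe from -1.55 to -0.51 with treated RNA in Cy5 and at 1.32 and 0.75 with it in Cy3. The taurine carrier gene Slc6a6 had 1 value, -2.51, in set 1. The bile acid carrier gene Slc10a2 had values in set 1 alone, at -2.32 with treated RNA in Cy5 and 2.03 with it in Cy3. The rest, each with at most 1 complete set, were Slc12a3, Slc12a9, Slc22a8, Slc24a3, Slc25a27, Slc25a3, Slc44a4 and Slco1a6, with single arrays from -0.80 (Slc22a8) to 0.70 (Slc12a3). A further 2 probes name a carrier together with another gene and were not used.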

How the data were processed

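The deposited values are log2 ratios of the 2 dye channels, 1 per probe and array. The largest value, 6.64, equals the log2 of a ratio of 100, which gave the base. How the authors scanned, background-corrected and normalized the arrays is not given in the sources used here. Compression of dim spots is therefore unknown. Signs were turned on the arrays that carried treated RNA in Cy3, the 2 arrays of a set were averaged (that they share RNA is an assumption), and probes of 1 gene were averaged. Only the 13415 probes with no exact 0 were used. Gene names came from the platform annotation, in which 13738 probes had 1 symbol, 52 several and 2491 none. By Entrez ID 13694 matched the GRCm38.p6 gene table and 0 symbols changed.

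The 3 set values were tested against 0, two-sided, with limma 3.58.1 in R 4.3.3 and Benjamini-Hochberg adjustment over 11364 features. The test was run on simulated data of the same 11364 features with 200 changed, in 10 runs. It recovered 48.2% of 1.2-fold, 98.6% of 1.5-fold and 99.8% of 2-fold changes. False calls made up 6.28%. The number of arrays limits the precision. Every carrier that passed could be named, besides per substrate class up to 3 others with the largest change, a fixed list of known carriers, those measured in part or with discordant probes, and, per related list, up to 3 genes that passed and 1 that did not. Aco1, Cybrd1 and Cox17 lie outside this rule and were named after their values were seen. Gene members, substrate classes and lists were chosen with earlier results of these data known. The lists describe counts, with no list test. Genes named as probe gaps or dye gaps, and the other neurotransmitter and thiamine carriers, were chosen after their values were seen. Alternatives covered the set block, normalization between arrays, each orientation or set, exact zeros, single probes, sign agreement, robust variances and thresholds.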

Additional observations from a re-analysis of the deposited data

How the results depend on the processing

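With 24 carriers higher and 30 lower as reported (31%, against 29% of all features), leaving out 1 set gave 19 to 26 higher and 20 to 23 lower. Those were 22.4% to 27% of the carriers, against 23% to 25.9% of all features. In the next sentences too, the second share in brackets is that of all features. The arrays with treated RNA in Cy5 alone gave 14 and 16 (17.2%, against 16.1%). Those with treated RNA in Cy3 alone gave 23 and 12 (20.1%, against 21%), and the cause was not tested. At an adjusted p below 0.01 there were 17 higher and 17 lower (19.5%, against 18.7%). Against a 1.5-fold change limma called 4 higher and 0 lower (2.3%, against 2.6%), with 5 and 2 at an unadjusted p below 0.05. With the replicate block (the set number) fixed and a dye term the counts were 21 and 22 (24.7%, against 21.5%). They were 27 and 30 with a random block (32.8%, against 30%) and 19 and 23 with no block (24.1%, against 21.7%). Deviations of same-numbered arrays correlated at 0.491, 0.523 and 0.0329 as deposited and with the opposite sign (-0.491, -0.523 and -0.0329) once turned. Set 3 showed next to none. No set had a positive correlation once turned, so the data do not establish for any set that its arrays shared RNA. Averaging within a set cancels what its arrays shared as deposited, so SDs between sets leave that part out. Median centring, scale and quantile normalization, exact zeros kept (197 carriers), features in at least 2 sets (187 carriers), single probes and robust variances gave 23 to 26 higher and 27 to 30 lower. The sign agreement run kept 50 carriers by the signs of these same data and called 21 higher and 25 lower. Those were 92% of the carriers kept, against 88.7% of all features kept. That filter favours calls, so these counts say nothing of how stable the calls are. Slc31a2, Slc15a3, Slc6a4 and Slc7a11 passed in all 19 alternatives. Signs turned for Slc30a1 with treated RNA in Cy5 alone (-0.11), for Slc3a2 with it in Cy3 alone (-0.0048), and for Slco3a1, which passed at 0.27 there. Of 1864 values of 101 named carriers, 203 lost the call, 41 gained it and 33 turned sign without passing in either. Without intensities, signal over background cannot be given.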

Other observations

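ABC transporters, which unlike carriers burn ATP, form a separate superfamily. Of 31 measured genes 3 rose (9.68%, against 14.0% of all features) and 9 fell (29.0%, against 15.0%), and no test of the group was made. The genes were taken by name, so the counts include Abce1 and the Abcf genes, which are not transporters and did not pass. On all 6 arrays 2 of the rises and 4 of the falls kept 1 sign. Abcb9, a lysosomal peptide transporter, rose by 0.61 ± 0.14, the cholesterol exporter gene Abca1 by 0.41 ± 0.30 and the glutathione conjugate exporter gene Abcc1 by 0.34 ± 0.091 (SD, n = 3 sets). Among 13 measured ion pump genes 15.4% passed, against 29.0% of all features. The calcium pump of the plasma membrane Atp2b1 rose by 0.39 ± 0.17, and 11 did not pass. The Golgi pump Atp2c1 passed at -0.27 ± 0.11, but its orientations opposed each other. Atp2c1 averaged -0.84 on the arrays with treated RNA in Cy5 and 0.29 on those with it in Cy3.

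Carbonic anhydrases, which supply bicarbonate and protons to ion carriers, had 2 rises among 6 genes (33.3%, against 14.0% of all features). They were Car13 at 1.24 ± 0.067 and Car2 at 0.22 ± 0.026. None of 7 carrier partner and adaptor genes passed in limma, against 29.0% of all features, and 1 had an unadjusted p below 0.05. The highest was Bsg, the chaperone of lactate carriers, at 0.16 ± 0.11 (limma adjusted p = 0.0611). Mitochondrial pore and translocator genes had 2 rises among 13 (15.4%, near the 14.0% of all features), Timm17a (0.15 ± 0.066) and Timm23 (0.14 ± 0.015). Of 19 measured carrier genes known under other names 3 rose (15.8%) and 2 fell (10.5%), against 14.0% and 15.0% of all features. Among these 5 were the lysophospholipid importer gene Mfsd2a at 0.41 ± 0.089, the lysosomal cystine exporter gene Ctns at -0.27 ± 0.068 and Nipal3 at -0.31 ± 0.16.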
